A study of Mus musculus with 12 samples.

Results

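The mitochondrially encoded transcripts of mouse liver are described here, as the 13 rows of a table of 25676 genes whose symbol begins with mt-. All 13 are protein-coding, and their identifiers matched 13 of the 37 genes that GENCODE mouse release M21 places on the mitochondrial chromosome. The other entries, 2 ribosomal RNA and 22 transfer RNA genes, were not analysed here. The 13 members passed the filter on low values (mean of at least 0.5 TPM), so no member was left out.

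RNA was sequenced from whole liver of 12 mice on a C57BL/6 background at 3 to 4 months of age. The KO mice (3 males and 3 females) lacked *Yap1*, a transcriptional co-activator of the Hippo pathway, through Cre recombinase driven by *Foxa3*, which is active in the embryonic endoderm that forms hepatocytes and bile ducts. The WT mice (3 males and 3 females) are labelled wild type, and whether they carried Cre or floxed alleles is not stated in the labels. Values are TPM, a transcript abundance scaled by gene length and by each library's total. Each mouse gave 1 library. In bulk tissue, fewer cells of a type and less RNA per cell cannot be told apart.

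Mitochondrial DNA encodes core subunits of the respiratory chain: 7 subunits of complex I (NADH dehydrogenase), cytochrome b of complex III, 3 subunits of complex IV (cytochrome c oxidase) and 2 subunits of complex V (ATP synthase). Complex II is wholly nuclear. Both strands are transcribed as long precursors, which are cut mostly at the tRNAs that lie between the genes, and each mature mRNA then has its own stability. Most liver mitochondria are in hepatocytes, which use oxidative phosphorylation for gluconeogenesis, urea synthesis and fatty acid oxidation.

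The members lie close together on chromosome M of GRCm38, and 4 neighbouring pairs share bases, which bears on how reads were divided between them. *mt-Atp6* and *mt-Co3* share 1 base, and the other 3 pairs are shown. The *mt-Atp8* reading frame (chrM:7766-7969, plus strand) ends inside *mt-Atp6*, and both stay on 1 mRNA. The 43 shared bases, in capitals below, make up 21.1% of *mt-Atp8*. The *mt-Atp6* line gives its first 60 bases (chrM:7927-7986, plus strand). Sequences are from the GENCODE M21 transcripts, written 5′ to 3′ as DNA letters.
mt-Atp8: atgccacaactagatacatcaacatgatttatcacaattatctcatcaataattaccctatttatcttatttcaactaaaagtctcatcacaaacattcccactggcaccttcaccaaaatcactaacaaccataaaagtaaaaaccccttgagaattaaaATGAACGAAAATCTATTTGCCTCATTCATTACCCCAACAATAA
mt-Atp6: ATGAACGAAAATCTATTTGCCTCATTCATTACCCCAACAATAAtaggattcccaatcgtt

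*mt-Nd4l* and *mt-Nd4* form the second bicistronic mRNA and share 7 bases, which are 2.36% of *mt-Nd4l*. The last 60 bases of *mt-Nd4l* (chrM:10114-10173) and the first 60 of *mt-Nd4* (chrM:10167-10226), both on the plus strand, are shown with the shared bases in capitals.
mt-Nd4l: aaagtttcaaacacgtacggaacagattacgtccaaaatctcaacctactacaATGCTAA
mt-Nd4: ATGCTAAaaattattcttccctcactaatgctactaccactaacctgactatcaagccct

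*mt-Nd6* is the 1 member on the minus strand, and its last 14 bases (2.7% of the gene) lie opposite the end of *mt-Nd5*. Its base composition is also set apart, with 28.1% G and 5.97% C, where the other 12 members hold between 5.88% and 16.1% G. The last 60 bases of each are shown (*mt-Nd5*, chrM:13506-13565, plus strand, and *mt-Nd6*, chrM:13552-13611, minus strand), with the overlapping bases in capitals. The labels do not state whether counting used strand, so *mt-Nd6* reads and reads from RNA of the opposite strand cannot be told apart.
mt-Nd5: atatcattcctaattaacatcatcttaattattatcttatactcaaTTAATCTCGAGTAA
mt-Nd6: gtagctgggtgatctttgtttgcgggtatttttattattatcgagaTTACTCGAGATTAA

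*mt-Nd1* and *mt-Cytb* are the first and last mRNAs of the heavy-strand precursor, and the annotated ends of their genes differ in the stop codon. As annotated, the gene ends in a whole stop codon in 10 members, *mt-Nd1* among them. It ends in a lone T in *mt-Co3*, *mt-Nd4* and *mt-Cytb*, where the poly(A) tail is known to complete the codon. Where the mature mRNAs end was not examined. The last 60 bases of each are shown (*mt-Nd1*, chrM:3648-3707, and *mt-Cytb*, chrM:15229-15288, both plus strand), with the encoded bases of the stop in capitals.
mt-Nd1: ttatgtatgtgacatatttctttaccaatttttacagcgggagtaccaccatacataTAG
mt-Cytb: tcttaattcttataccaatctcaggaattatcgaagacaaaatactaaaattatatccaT

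Some facts of the libraries touch the values that follow. *Yap1* was 22.99 to 34.92 TPM in WT and 0.994 to 3.106 TPM in KO, without overlap. The member values, multiplied by the annotated lengths and divided by 1 constant for each library, came to whole numbers of reads within 0.05 in all 12 libraries, from 1196873 to 2275313 mitochondrial reads a library. The smallest count was 875 reads, for *mt-Atp8*, with a counting error of 3.38%. WT female replicate 3 and KO female replicate 1 carry animal numbers well below those of the other 10 mice and are called the early-numbered mice here. WT male replicate 2 carries a library number apart from the others. The column headers carry the same flow cell and lane code for all 12 libraries. The library numbers of the early-numbered mice run on with those of most others. The labels do not say whether any of these mice were processed separately before sequencing. The 6 hepatocyte markers summed to 74736 to 105548 TPM in WT and 57459 to 83117 TPM in KO, with 2 of the 6 higher and 2 lower by the genotype test on deposited TPM described below, under which 50.1% of all tested genes were higher and 4.82% lower. On the median-of-ratios scale described below 0 of the 6 were higher and 3 lower, where 20.6% of all tested genes were higher and 18.7% lower. The 6 bile duct markers summed to 27.7 to 58.5 TPM in WT and 251.6 to 712.8 TPM in KO, and of the 4 tested 2 rose and 1 fell. The 6 macrophage markers all rose, with sums of 68.3 to 223.6 TPM in WT and 305.4 to 631.9 TPM in KO. Of the stellate and fibroblast markers 4 of 6 rose (sums of 21.5 to 46.0 TPM in WT and 88.3 to 200.1 in KO), of the leukocyte markers 4 of 6 rose (2.16 to 19.0 and 20.6 to 52.7), and of the endothelial markers 0 rose and 2 of 6 fell (47.7 to 74.4 and 24.95 to 102.2). On the median-of-ratios scale, against the same shares of all tested genes, 6 of 6 macrophage, 2 of 6 leukocyte and 3 of 6 stellate and fibroblast markers were higher, 1 of the last was lower, 3 of 6 endothelial markers were lower, and the bile duct counts were the same. The 5 red cell markers were not called on either scale (788.0 to 2161 and 563.5 to 3396). The part of these other cell types in the results below was not tested.

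Mitochondrial mRNAs were among the most abundant in every liver, with 7 or 8 of the 13 members among the 20 highest genes of each library. Together they made up 12.98% to 18.57% of TPM in WT (16.07% ± 2.05, SD, n = 6) and 12.42% to 18.28% in KO (14.63% ± 2.256, SD, n = 6). The 2 ranges overlapped almost fully. The major urinary proteins (*Mup* genes), secreted by hepatocytes, accounted for a mean of 8.838% of the WT totals (SD 5.243, n = 6) and 0.3692% of the KO totals (SD 0.2582, n = 6). With the 22 *Mup* rows left out of the denominator, the mitochondrial share was 17.65% ± 2.25 in WT and 14.68% ± 2.25 in KO (SD, n = 6 each), and the ranges of 15.41% to 20.96% and 12.52% to 18.32% still overlapped.

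The highest and lowest members differed from each other in mean TPM more than any member differed between groups. Neighbours in the order could lie closer together than that. The means of *mt-Nd1* and *mt-Cytb*, given below, were closer than those of *mt-Cytb* in WT (14554 TPM) and KO (11535 TPM). The order is one of TPM and not of molecules, since frames that share 1 mRNA did not have equal TPM. Mean TPM over the 12 livers ran from 31891 for *mt-Co1*, the catalytic subunit of complex IV, to 607 for *mt-Atp8*, the small membrane subunit of ATP synthase. *mt-Co2* (21472), *mt-Atp6* (18995) and *mt-Co3* (18140) followed *mt-Co1*. *mt-Nd1* (13359), *mt-Cytb* (13045), *mt-Nd4* (10922) and *mt-Nd2* (10528) formed the middle of the order. *mt-Nd5* (4697), *mt-Nd6* (3864), *mt-Nd3* (3227) and *mt-Nd4l* (2755) stood between them and *mt-Atp8*. *mt-Co1* exceeded *mt-Co2* in 12 of 12 libraries, by 1.32 to 1.63 times, *mt-Nd2* exceeded *mt-Nd5* in 12 of 12, by 1.63 to 3.53 times, and *mt-Nd4l* exceeded *mt-Atp8* in 12 of 12, by 3.32 to 6.22 times. Inside the middle group *mt-Nd1* exceeded *mt-Cytb* in 6 of 12 libraries, *mt-Cytb* exceeded *mt-Nd4* in 11 of 12 and *mt-Nd4* exceeded *mt-Nd2* in 7 of 12. *mt-Atp6* exceeded *mt-Co3* in 8 of 12. *mt-Atp8* stood at 0.0295 ± 0.0077 (WT) and 0.0346 ± 0.00688 (KO) of *mt-Atp6* (SD, n = 6 each), and *mt-Nd4l* at 0.234 ± 0.0724 and 0.265 ± 0.0461 of *mt-Nd4*.

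**Figure D1:**
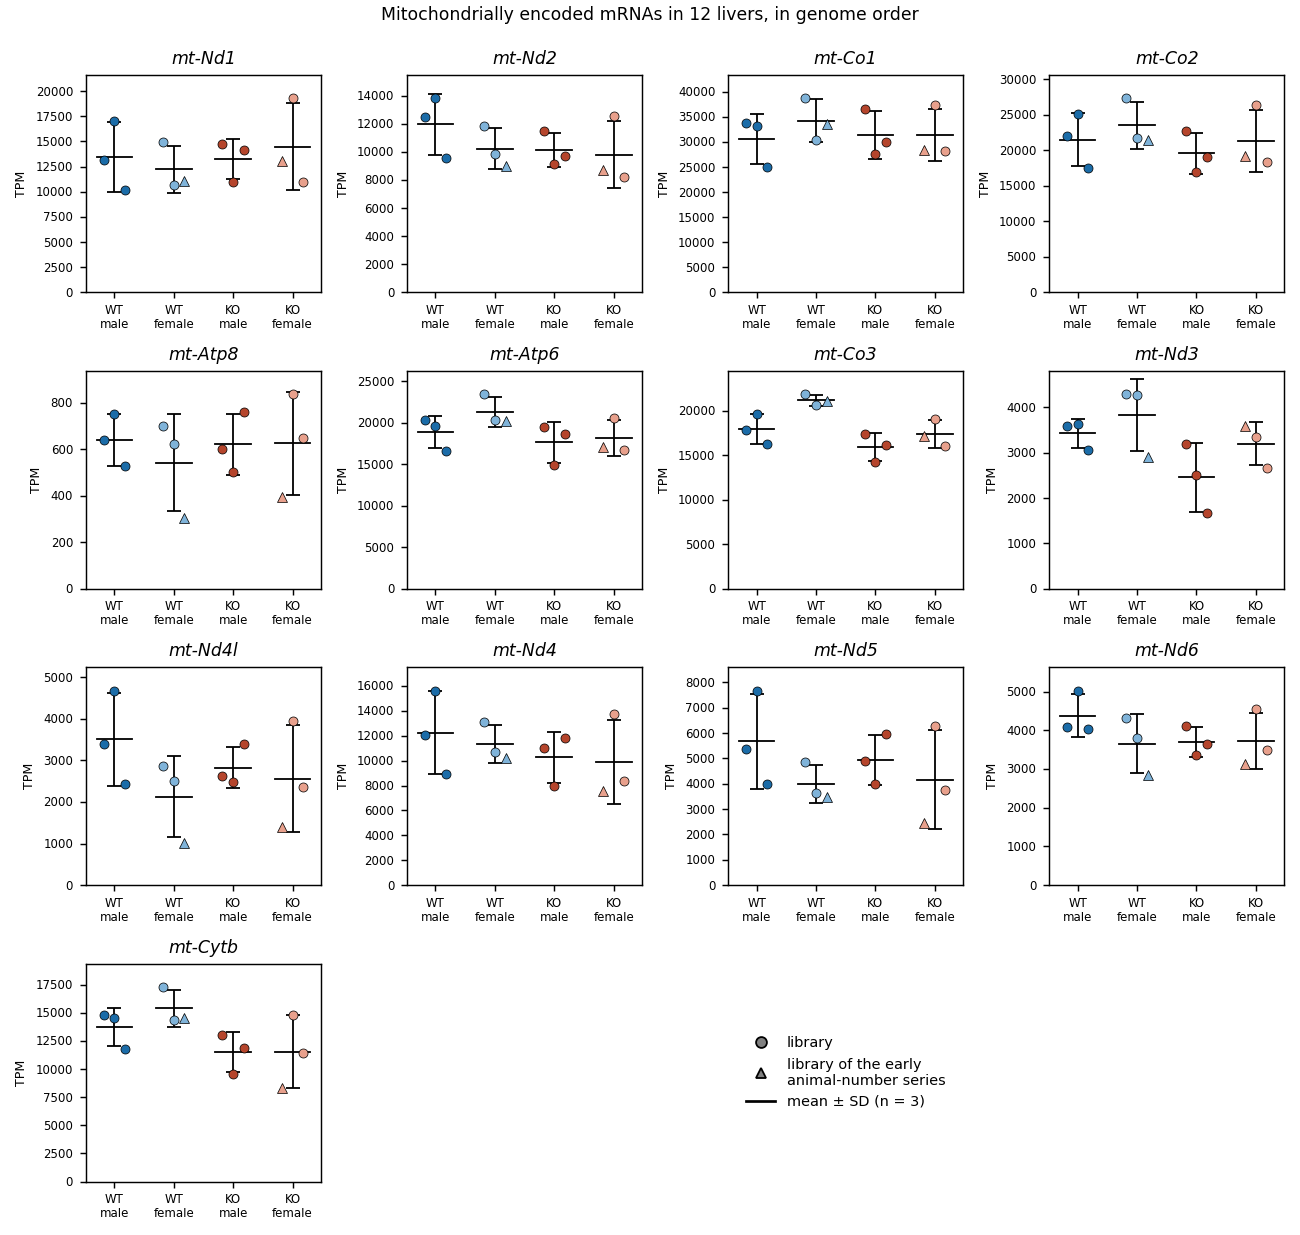
TPM of the 13 mitochondrial mRNAs in genome order, 1 point a library, with the mean and SD of each group of 3 (WT and KO, male and female) and triangles for the 2 early-numbered mice. WT and KO points overlap in every panel, and the triangles are the lowest points for *mt-Atp8*, *mt-Nd4l* and *mt-Nd5*.

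By complex, the mean shares of the mitochondrial mRNA pool differed between genotypes by less than their SD for complexes I, IV and V. Complex IV mRNAs held 46.41% ± 2.468 of mitochondrial TPM in WT and 46.96% ± 1.882 in KO, complex I mRNAs 31.6% ± 3.674 and 32.46% ± 1.865, and complex V mRNAs 12.92% ± 0.8547 and 12.72% ± 0.6449 (SD, n = 6 each). *mt-Cytb*, the only complex III member, held 8.057% to 9.564% in WT and 6.404% to 8.738% in KO, with means of 9.075% ± 0.5342 and 7.858% ± 0.7834 (SD, n = 6 each). These ranges overlapped as well, and the shares were not tested. Among WT mice, complex I mRNAs held 32.49% to 37.45% of the pool in males and 26.65% to 30.26% in females, without overlap between 3 and 3 mice. Complex IV mRNAs lay the other way, at 43.2% to 45.2% in WT males and 47.36% to 50.25% in WT females, and so did *mt-Cytb*, at 8.057% to 9.07% and 9.315% to 9.564%, both without overlap. The shares are parts of 1 pool, so a higher share of 1 complex lowers the others. These gaps therefore depend on each other, and they were not tested. In KO the complex I share was 32.14% to 34.28% in males and 30.31% to 34.86% in females, the complex IV share 44.39% to 47.41% and 45.27% to 49.67%, and the *mt-Cytb* share 7.733% to 8.101% and 6.404% to 8.738%, all overlapping.

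The genotype comparison asked whether any mitochondrial mRNA changed when *Yap1* was removed. On TPM as deposited, none of the 13 was called (limma on log2(TPM + 1) with sex as covariate, adjusted p under 0.05 over 12278 genes), and 2 had an unadjusted p under 0.05. Over all genes tested, 54.9% were called, 50.1% higher and 4.82% lower. The KO minus WT differences of the members ran from -0.39 to 0.11 on the log2 scale with a median of -0.14, and all 13 lay below the median of all tested genes, which was 0.35. *mt-Nd3*, a small complex I subunit, was 2904 to 4287 TPM in WT (median 3609) and 1680 to 3595 TPM in KO (median 2932). Its difference was -0.39 ± 0.17 (SE, limma adjusted p = 0.0688), and its lowest value was that of KO male replicate 3. *mt-Cytb* was 11767 to 17293 TPM in WT (median 14517) and 8361 to 14853 TPM in KO (median 11681), a difference of -0.35 ± 0.16 (SE, limma adjusted p = 0.0744). *mt-Co3*, a core complex IV subunit, was 16252 to 21882 TPM in WT (median 20143) and 14256 to 19103 TPM in KO (median 16700), with a 95% interval of -0.49 to 0.03 for the log2 difference. For *mt-Co1* the 95% interval was -0.38 to 0.28, and for *mt-Nd4l*, the member with the widest interval, -0.64 to 0.64, so these 12 livers leave room for changes of that size in either direction.

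The call depended on how the libraries were scaled. Dividing each library by a median-of-ratios size factor, from 12819 genes above 0 in every library, moved the median difference of all tested genes from 0.35 to -0.04. The factors were 0.724 to 0.949 in WT and 1.09 to 1.34 in KO, so the scaling lowered KO relative to WT for every gene. Calls and lack of overlap on this scale include that shared shift. On that scale 9 of the 13 members were lower in KO, where 39.3% of the tested genes were called, 20.6% higher and 18.7% lower. The members' differences ran from -0.85 to -0.36, with a median of -0.61. The called members were *mt-Nd2*, *mt-Nd3*, *mt-Nd4* and *mt-Nd6* of complex I, *mt-Cytb*, all 3 complex IV members and *mt-Atp6*. *mt-Nd1*, *mt-Nd4l*, *mt-Nd5* and *mt-Atp8* did not pass, with differences of -0.36 to -0.56. On this scale *mt-Cytb* was 14286 to 20615 in WT and 6706 to 13629 in KO, without overlap, a difference of -0.82 ± 0.19 (SE, limma adjusted p = 0.00429). *mt-Co3* was 19731 to 27899 in WT and 12423 to 17529 in KO, also without overlap, a difference of -0.69 ± 0.15 (SE, limma adjusted p = 0.00303). *mt-Nd3* was 3257 to 5144 in WT and 1287 to 3062 in KO, a difference of -0.85 ± 0.21 (SE, limma adjusted p = 0.00591), and *mt-Atp6* was 20227 to 27823 against 13271 to 18935. When each library was left out in turn, *mt-Nd2*, *mt-Nd3*, *mt-Co3*, *mt-Atp6* and *mt-Cytb* were called in 12 of 12 such fits, and *mt-Co1* in 3 of 12.

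Other denominators gave other counts. With the *Mup* rows left out, 3 members were lower, where 6.42% of the tested genes were called lower: *mt-Cytb* (-0.48), *mt-Co3* (-0.36) and *mt-Nd3* (-0.52), with limma adjusted p of 0.0201, 0.0227 and 0.0255. With the mitochondrial rows themselves left out of the denominator, 0 members were called, with 2 at an unadjusted p under 0.05 (53.2% of tested genes called by limma). Relative to the summed mitochondrial mRNA, 0 were called and 0 had an unadjusted p under 0.05 (53.8% of tested genes called by limma). On that last scale *mt-Nd1* stood at 0.25 ± 0.15 and *mt-Cytb* at -0.21 ± 0.15 (SE, limma adjusted p = 0.163 and 0.229).

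The authors' deposited table gives its own comparison of KO with WT. In the authors' deposited table all 13 members had a negative log2 fold change, from -1.07 for *mt-Nd4l* to -0.55 for *mt-Nd1*, with a median of -0.79, where the median over its 17332 compared genes was 0.04. Of the 13, 8 had an FDR p-value printed under 0.05 in the authors' deposited table, where 9.27% of its genes were lower at that threshold. Those 8 included *mt-Nd4l* (-1.07), *mt-Nd5* (-1.05) and *mt-Atp8* (-0.74) in the authors' deposited table, which did not pass on any scale of the TPM described above. *mt-Co1*, *mt-Co2*, *mt-Co3* and *mt-Atp6* passed on the median-of-ratios scale and had printed FDR p-values of 0.05 to 0.11 in the authors' deposited table. The cause of these differences was not tested.

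**Figure D2:**
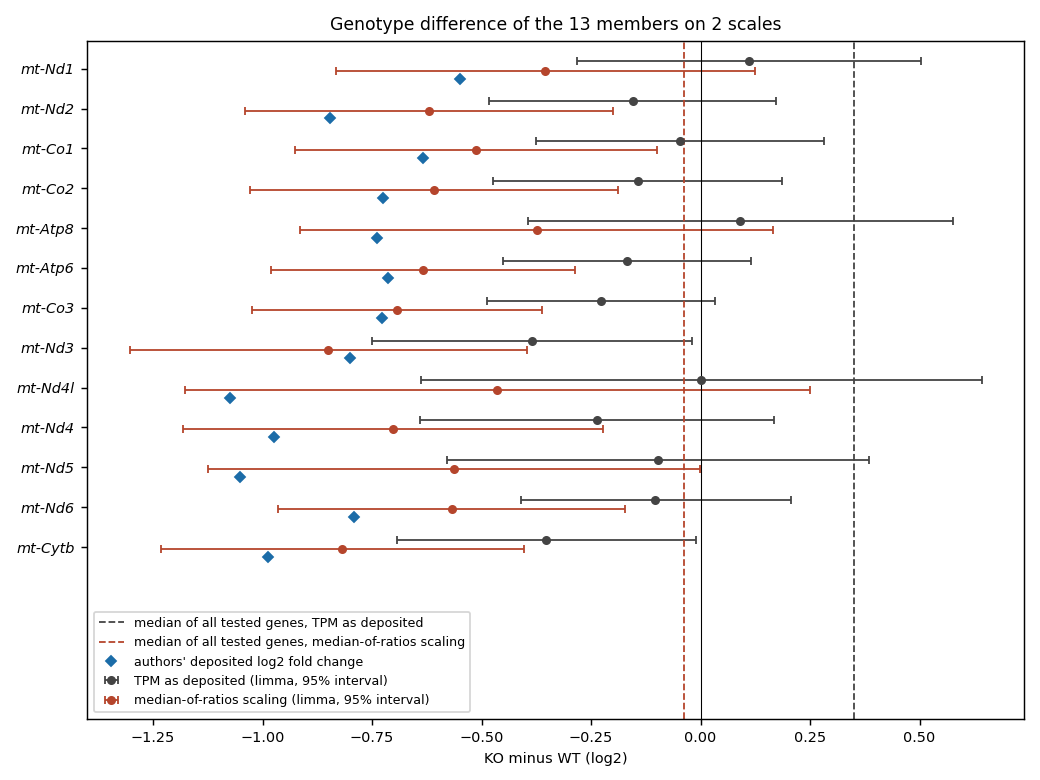
KO minus WT difference (log2) of each member on TPM as deposited (grey, limma, 95% interval) and on the median-of-ratios scale (red, limma, 95% interval), with the authors' deposited log2 fold change (blue diamonds). Dashed lines mark the median of all tested genes on each scale, 0.35 and -0.04, and all 13 members lie below it on both.

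The difference was next taken within each sex. In males 0 members were called on deposited TPM, with 1 at an unadjusted p under 0.05 (46.1% of tested genes called by limma), and their median difference was -0.17. In females 0 were called, with 0 at an unadjusted p under 0.05 (33.8% of tested genes called by limma), and the median was -0.13. On the median-of-ratios scale 5 members were lower in males, where 10.3% of tested genes were called lower: *mt-Nd3* (-1.10), *mt-Cytb* (-0.83), *mt-Nd6* (-0.82), *mt-Nd2* (-0.81) and *mt-Co3* (-0.75). On the same scale 0 were called in females, with 3 at an unadjusted p under 0.05, where 10.9% of tested genes were called lower by limma, and *mt-Cytb* stood at -0.80 ± 0.28 (SE, limma adjusted p = 0.0521). The direct test of a difference between the sexes called 0 members by limma on either scale, with 0 at an unadjusted p under 0.05 (0.912% of tested genes called on deposited TPM and 0.841% on the median-of-ratios scale). Between WT males and WT females 0 members were called by limma on deposited TPM, with 0 at an unadjusted p under 0.05 (5.74% of tested genes called). The widest gap between WT males and WT females was in *mt-Nd4l*, at 0.80 ± 0.42 (males minus females, SE, limma adjusted p = 0.242), and it was 0.33 without WT female replicate 3, an early-numbered mouse. Its unadjusted limma p was 0.0414 on the median-of-ratios scale and 0.0188 relative to mitochondrial mRNA, where the adjusted limma p was 0.19 and 0.284. Between KO males and KO females 0 members were called by limma on deposited TPM, with 0 at an unadjusted p under 0.05 (0.0814% of tested genes called).

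Ratios between 2 members of the same library do not depend on its scaling. The first was *mt-Nd1* over *mt-Cytb*, the ends of the heavy-strand precursor. *mt-Nd1*, a membrane subunit of complex I, was 13180, 17051 and 10143 TPM in WT males, 14941, 10694 and 11019 in WT females, 14746, 11015 and 14107 in KO males and 13072, 19326 and 11011 in KO females. *mt-Cytb*, the cytochrome b of complex III, was 14834, 14524 and 11767 TPM in WT males, 17293, 14395 and 14510 in WT females, 13035, 9602 and 11894 in KO males and 8361, 14853 and 11467 in KO females. *mt-Nd1* was below *mt-Cytb* in 5 of 6 WT livers and above it in 5 of 6 KO livers. The ratio was 0.882 ± 0.155 in WT and 1.21 ± 0.203 in KO (SD, n = 6 each), a log2 difference of 0.46. It had an exact two-sided permutation p of 0.015 (labels permuted within sex over 400 arrangements, smallest possible p 0.005). Adjusted over the 4 ratios computed, the exact p was 0.06, so the difference did not pass. The difference was 0.26 in males and 0.67 in females, and 4 of 6 KO livers lay above every WT liver of their own sex. WT male replicate 2, at 1.174, was the only WT liver above 1, and the other 5 WT livers lay below all 6 KO livers. Without it the difference was 0.53 and the adjusted exact permutation p 0.02. That liver was singled out from these same values, and its removal leaves the genotypes fully split. The p without it therefore cannot serve as a further test. Without the 2 early-numbered mice the difference was 0.37, with an adjusted exact permutation p of 0.2.

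The light-strand mRNA was compared with its heavy-strand neighbour. *mt-Nd6* was 4077, 5022 and 4033 TPM in WT males, 4327, 3789 and 2834 in WT females, 4119, 3351 and 3655 in KO males and 3140, 4540 and 3480 in KO females. *mt-Nd5*, a proton-pumping subunit of complex I, was 5359, 7675 and 3989 TPM in WT males, 4872, 3650 and 3474 in WT females, 4893, 4003 and 5965 in KO males and 2459, 6283 and 3745 in KO females. *mt-Nd5* was highest in WT male replicate 2 and lowest in KO female replicate 1, an early-numbered mouse. The ratio was 0.861 ± 0.148 in WT and 0.87 ± 0.228 in KO (SD, n = 6 each), and the log2 difference of -0.01 did not pass (exact permutation p = 0.97).

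For the overlapping ATP synthase frames printed above, *mt-Atp8* was 640, 751 and 528 TPM in WT males, 699, 624 and 305 in WT females, 601, 503 and 761 in KO males and 395, 837 and 647 in KO females. *mt-Atp6*, which forms the proton channel, was 20319, 19602 and 16661 TPM in WT males, 23444, 20290 and 20223 in WT females, 19487, 14876 and 18654 in KO males and 17034, 20635 and 16717 in KO females. The ratio was lowest in the 2 early-numbered mice, at 0.01506 and 0.02316, and 0.02981 to 0.0408 in the other 10. The genotype difference of 0.26 (log2) did not pass (exact permutation p = 0.275, adjusted 0.52), and it was 0.22 without those 2 mice.

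*mt-Nd4l* and *mt-Nd4*, 2 membrane subunits of complex I, gave the same picture. *mt-Nd4l* was 3396, 4673 and 2431 TPM in WT males, 2865, 2513 and 1013 in WT females, 2616, 2471 and 3392 in KO males and 1397, 3939 and 2351 in KO females. *mt-Nd4* was 12094, 15616 and 8961 TPM in WT males, 13062, 10660 and 10205 in WT females, 11042, 7953 and 11818 in KO males and 7574, 13745 and 8334 in KO females. The early-numbered mice had the lowest ratios, 0.09922 and 0.1844, and the other 10 livers lay between 0.2193 and 0.3106. The genotype difference of 0.24 did not pass (exact permutation p = 0.39, adjusted 0.52), and it was 0.14 without them.

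**Figure D3:**
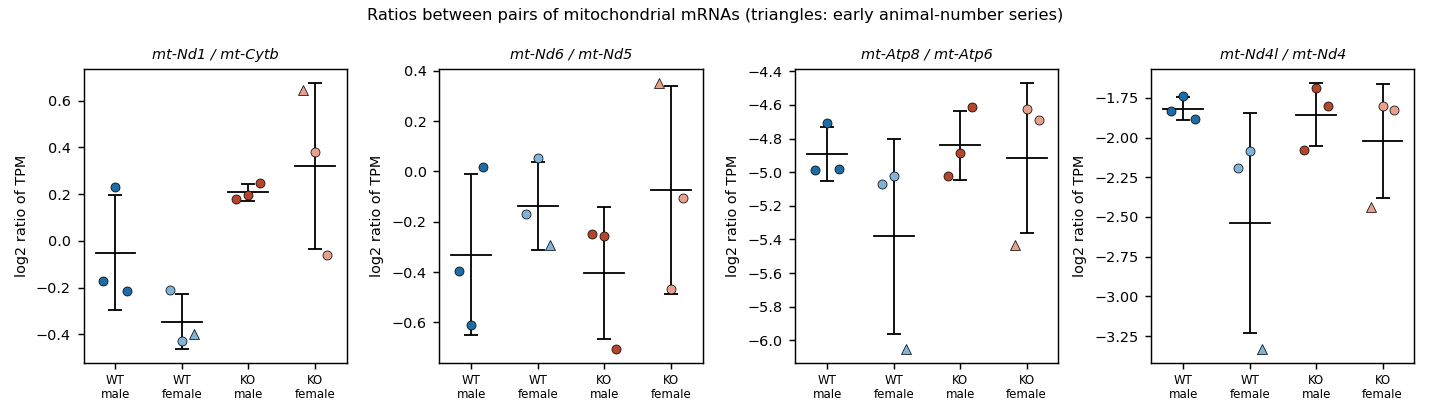
Log2 ratio of TPM for 4 pairs of members, 1 point a library, with the mean and SD of each group of 3 and triangles for the 2 early-numbered mice. For *mt-Nd1* over *mt-Cytb* WT male replicate 2 lies among the KO livers and the other 5 WT livers lie below all 6, and the triangles are the lowest points for *mt-Atp8* over *mt-Atp6* and *mt-Nd4l* over *mt-Nd4*.

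Members also differed in how much they varied among mice of the same group. The SD of log2 TPM within groups was 0.61 for *mt-Nd4l*, 0.47 for *mt-Atp8* and 0.46 for *mt-Nd5*, and 0.12 for *mt-Co3*. As a share of mitochondrial mRNA the SD within groups was 0.48 for *mt-Nd4l*, 0.36 for *mt-Atp8* and 0.32 for *mt-Nd3*, and 0.04 for *mt-Co2*. *mt-Nd4l*, *mt-Atp8* and *mt-Nd3* are the shortest members, at 297, 204 and 348 bases, where *mt-Co2* has 684. The longest member, *mt-Nd5* with 1824 bases, had an SD of 0.28 by share. Whether the spread follows gene length was not tested. The lowest read counts were 4234 for *mt-Nd4l* and 5094 for *mt-Nd3*, with counting errors of 1.54% and 1.4%. The share of *mt-Nd4l* ran from 0.667% of mitochondrial mRNA in WT female replicate 3 to 2.59% in WT male replicate 2. The share of *mt-Nd3* was lowest in KO male replicate 3, at 1.14%, and 1.83% to 2.79% in the other 11 livers. Among the 12 heavy-strand members, the deposited genotype difference and the start position had Pearson r = -0.55 and Spearman rho = -0.52, given as a description over 12 members that share the same libraries. The same measure against length was r = -0.09 and against GC content r = 0.07.

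**Figure D4:**
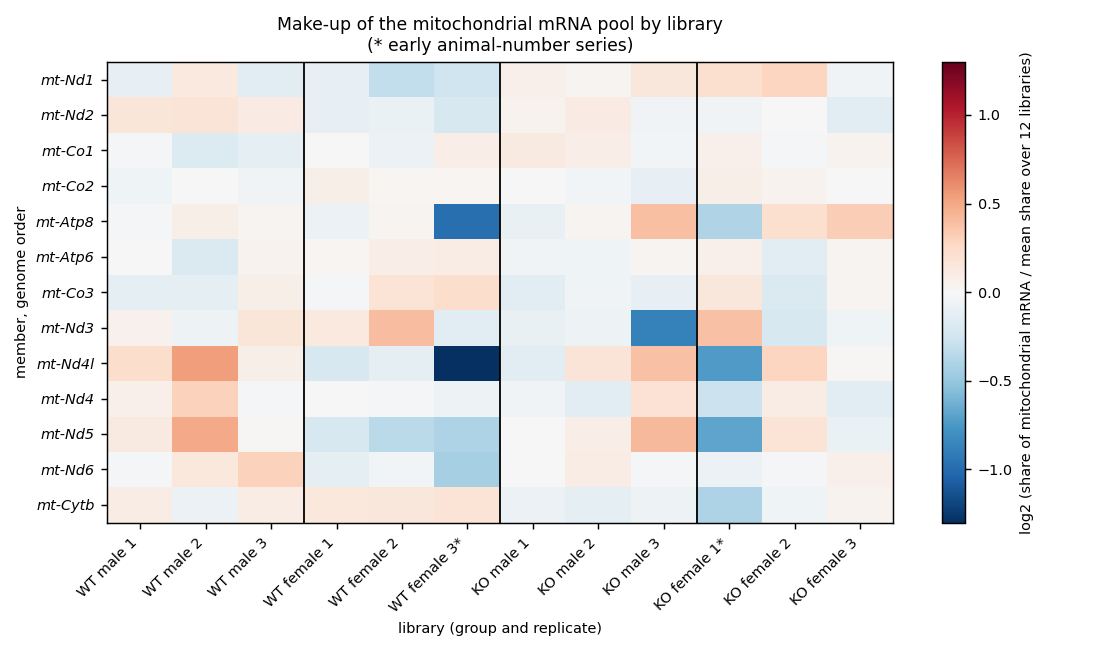
Share of mitochondrial mRNA of each member (rows, genome order) in each library (columns), as log2 of the share over its mean in 12 libraries, with blue below and red above the mean. *mt-Nd4l*, *mt-Atp8* and *mt-Nd5* are blue in both early-numbered mice (asterisks), and *mt-Nd3* is blue in KO male replicate 3.

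The nuclear genes that build and express the same complexes were read from lists of known members. Median differences of the nuclear subunits on deposited TPM were -0.10 for complex I, -0.10 for complex III, -0.07 for complex IV, -0.08 for complex V and -0.12 for complex II, beside -0.14 for the 13 members and 0.35 for all tested genes. The complex I list was taken by symbol and holds *Ndufa4*, which is also counted in complex IV, and *Ndufa4l2*, a paralog of *Ndufa4*. Of its 39 genes 0 rose and 1 fell, *Ndufb10* (-0.42 ± 0.12, SE, limma adjusted p = 0.00978). None of 9 complex III, 11 complex IV or 14 complex V subunits was called, and 1 of 4 complex II subunits fell, *Sdhb* (-0.26 ± 0.10, SE, limma adjusted p = 0.0426), where 50.1% of all tested genes rose and 4.82% fell. On the median-of-ratios scale 23 of 39, 6 of 9, 5 of 11, 9 of 14 and 4 of 4 were lower, and 0 were higher, where 18.7% of all tested genes were lower and 20.6% higher. The list medians there were -0.53 to -0.59, beside -0.61 for the members.

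Genes that express the mitochondrial genome are read against the 50.1% of all tested genes that rose, the 4.82% that fell and the all-gene median of 0.35 on deposited TPM. Of 20 genes of mitochondrial transcription and DNA maintenance 4 rose and 1 fell (median 0.04). *Top1mt*, the mitochondrial topoisomerase, rose from 21.0 ± 3.72 to 31.9 ± 1.38 TPM, and *Lonp1*, a matrix protease, from 64.4 ± 4.62 to 94.7 ± 12.3 TPM (SD, n = 6 each). Of 27 genes of mitochondrial RNA processing and decay 4 rose and 1 fell (median 0.16). The gene that fell was *Hsd17b10*, a subunit of the RNase P that cuts the 5′ ends of mitochondrial tRNAs, at 186 ± 12.1 TPM in WT and 143 ± 14.1 TPM in KO (SD, n = 6 each). *Fastkd2*, an RNA-binding protein of mitochondrial RNA granules, rose by 0.51 ± 0.13 (SE, limma adjusted p = 0.00471). Of 17 mitochondrial aminoacyl-tRNA synthetases 8 rose (median 0.34), close to the share and the median of all tested genes, with *Pars2* at 1.35 ± 0.252 TPM in WT and 3.24 ± 0.827 TPM in KO (SD, n = 6 each). Of 78 mitochondrial ribosomal proteins 8 rose (median 0.10).

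Of 10 regulators of mitochondrial biogenesis 3 rose and 1 fell (median 0.26), where 50.1% of all tested genes rose and 4.82% fell. *Ppara*, the nuclear receptor of fatty acid oxidation, fell from 39.1 ± 12.3 to 15.3 ± 3.68 TPM (SD, n = 6 each), with a difference of -1.27 ± 0.21 (SE, limma adjusted p = 0.000257). *Nrip1*, a co-repressor of oxidative genes, rose by 0.87 ± 0.20 (SE, limma adjusted p = 0.00264). On the median-of-ratios scale, where 18.7% of all tested genes were lower and 20.6% higher, 0 rose and 9 fell in transcription and DNA maintenance, 0 rose and 12 fell in RNA processing, and 0 rose and 32 fell among the ribosomal proteins. There 1 of 17 synthetases rose and 3 fell, and 0 of 10 regulators rose and 2 fell. *Ppara* (-1.71), *Hsd17b10* (-0.85) and *Pars2* (0.53) were called in the same direction on both scales, while *Top1mt*, *Lonp1*, *Fastkd2* and *Nrip1* were called on deposited TPM alone.

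**Figure D5:**
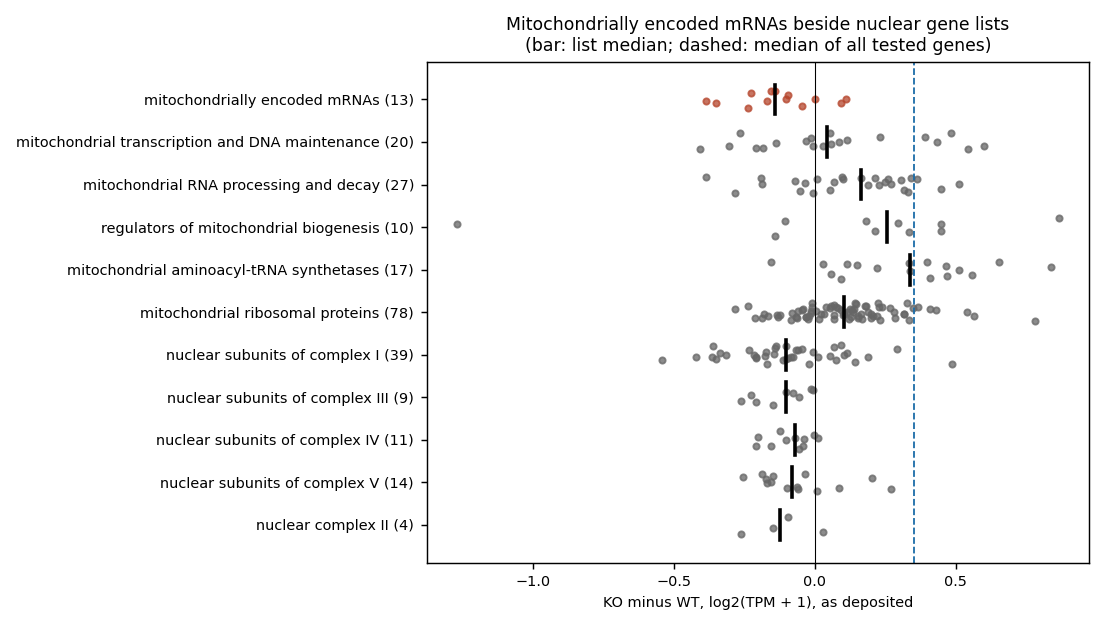
KO minus WT difference on log2(TPM + 1), as deposited, for each mitochondrial mRNA (red) and each gene of the nuclear lists (grey, number tested in brackets), with bars for list medians and a dashed line for the median of all tested genes, 0.35. The members' median of -0.14 lies beside those of the nuclear subunits of complexes I to V, and the lists for transcription, RNA processing, translation and regulators have medians of 0.04 to 0.34.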

How the data were processed

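RNA-seq of 12 livers was deposited as 1 TPM column a library, computed by the authors, with a signed fold change score, log2 fold change and FDR p-value of their own comparison, per the file headers. The submitters' processing notes name GRCm38 and edgeR. The aligner, counter, annotation and use of strand are not given in the sources used here. Genes with a mean of at least 0.5 TPM were fitted as log2(TPM + 1) with limma 3.58.1 in R 4.3.3 (eBayes with trend, two-sided, Benjamini-Hochberg over all tested genes, threshold 0.05) and tested on simulated data. Fold changes on this scale understate low genes. Replicates were numbered in deposition order and pair no samples.

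Ratios were tested by exact permutation within sex. Of 6 planned ratios 4 could be computed, and p-values were adjusted over those 4. Median-of-ratios scaling was an alternative to the deposited TPM, not the main scale. Member read numbers came from TPM times annotated length, divided by a library constant found from the low values. Library totals used lengths searched from the values, which equalled the annotated ones for 4752 of 15744 genes. These totals, 19883535 to 28133304 reads, are approximate and moved with the search settings, which were adjusted while the estimate was built. Of low values, 41.71% to 49.14% came out whole within 0.01 read. Of the columns of per-sample values, 0 were matched to no sample.

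Members were named by symbol, and the 3 largest called changes of each nuclear list were eligible for naming. The members and lists were chosen with earlier results of these data known.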

Additional observations from a re-analysis of the deposited data

Results flagged for a closer look

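Each of the 13 members, the 4 ratios and the mitochondrial share of TPM was checked, in the 6 livers of each genotype, for a sample far from the others, and 2 of 36 checks stood out, where chance gives about 1 in 20. The *mt-Nd1* over *mt-Cytb* ratio was 1.174 in WT male replicate 2, with 0.662 of the WT range between it and the next liver. The *mt-Atp8* over *mt-Atp6* ratio was 0.01506 in WT female replicate 3, an early-numbered mouse, with 0.634 of the WT range between it and the next liver.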

How the results depend on the processing

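The count of members called for genotype was 0 on deposited TPM, 9 with median-of-ratios scaling, 3 with *Mup* rows left out and 1 without the 2 early-numbered mice. With 1 library left out it was 0 to 1, where *mt-Nd3* (adjusted p 0.0256 without WT female replicate 3 and 0.0385 without KO male replicate 1) or *mt-Cytb* (0.0328 without KO female replicate 2) passed by limma. In males it was 5 with median-of-ratios scaling and 0 to 1 with 1 library left out, and in females 0 to 1. On the median-of-ratios scale, 5 to 10 members were called with 1 library left out (5 without WT female replicate 1 and 5 without KO female replicate 1) and 6 without the early-numbered mice; these fits were added after the data were seen. Pseudocount, low-value filter, sex term and number-series term left the deposited count at 0.

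Directions turned for 6 members, with main differences of -0.10 to 0.11, and for 1 ratio. With median-of-ratios scaling *mt-Nd1* was -0.36, *mt-Atp8* -0.37 and *mt-Nd4l* -0.46. With *Mup* rows out they were -0.019, -0.039 and -0.13. *mt-Nd4l* was -0.023 with mitochondrial rows out of the denominator and -0.09 without the early-numbered mice. Relative to mitochondrial mRNA *mt-Co1* was 0.093, *mt-Nd5* 0.042 and *mt-Nd6* 0.037. With 1 library left out the ranges were -0.003 to 0.21 for *mt-Nd1*, -0.12 to 0.005 for *mt-Co1*, -0.089 to 0.21 for *mt-Atp8*, -0.24 to 0.14 for *mt-Nd4l* and -0.26 to 0.04 for *mt-Nd5*. The ratio differences ranged from -0.11 to 0.093 (*mt-Nd6* over *mt-Nd5*), 0.38 to 0.56 (*mt-Nd1* over *mt-Cytb*), 0.09 to 0.39 (*mt-Atp8* over *mt-Atp6*) and 0.04 to 0.35 (*mt-Nd4l* over *mt-Nd4*). Without WT male replicate 2 *mt-Nd1* over *mt-Cytb* was 0.53 and passed, a removal that left the genotypes fully split. The cause was not tested. No paired analysis was possible because the labels carry no replicate numbers shared between groups. With 3 mice a group, the 95% intervals are wide, and limma p-values set a difference against the spread between these mice. Read depth was lowest for *mt-Atp8*, at 875 reads or more.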
